A study of Mus musculus with 5 samples.

Results

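The transcripts described here are those of the oxidative phosphorylation system in mouse liver, the 5 enzyme complexes by which mitochondria make ATP. They were chosen by gene symbol alone: every probe whose platform symbol begins with Ndufa, Ndufb, Ndufc, Ndufs, Ndufv, Uqcr, Cox4 to Cox8 or Atp5, or is Sdha, Sdhb, Sdhc or Sdhd, with Cox6a2 left out. This gave 81 probes and 70 genes of 16637 named genes on the array, each represented by its brightest probe (the highest mean intensity over the arrays). Of the 70, 64 encode subunits: 31 of complex I, 4 of complex II, 6 of complex III, 14 of complex IV and 9 of complex V. The other 6 match by letters and are not subunits: the assembly factors Ndufaf1, Ndufa12l (now Ndufaf2) and Atp5sl (now Dmac2), the supercomplex factor Cox7a2l, coupling factor B (Atp5s), and Cox4nb (now Emc8), which belongs to a complex of the endoplasmic reticulum membrane.

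There were 5 groups with 1 array each. Leptin-deficient ob/ob mice received chow with nordihydroguaiaretic acid (NDGA, a plant lignan and lipoxygenase inhibitor) at 2.5 g per kg of food, or chow alone. Wild-type (WT) mice received high-fat diet with the same dose of NDGA, high-fat diet alone, or chow. All mice had the C57BL/6 background and were on their diets for 16 weeks, and RNA of 3 animals was used per group. The sources used here do not give their sex or age, or whether the RNA was pooled. With 1 array per group there is no replicate error and no test: every difference below is between 2 arrays.

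In oxidative phosphorylation, complex I takes electrons from NADH and complex II from succinate, ubiquinone carries them to complex III and cytochrome c to complex IV, where oxygen is reduced. Complexes I, III and IV pump protons, and complex V, the ATP synthase, uses their return flow to make ATP. Liver depends on this chain to oxidise the reducing equivalents of fatty acid breakdown. Most subunits are encoded in the nucleus and a few in mitochondrial DNA, which are not analysed here.

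Intensities are given after quantile normalization, which gives all 5 arrays one distribution, because the deposited medians ran between 38.1 and 71.0 and the ob/ob array with NDGA was the brightest. Differences are of log2(normalized intensity + 50), which understates the change of dim probes. A gene counted as expressed when its mean log2 value over the compared arrays was at or above the median of all genes, and differences of at least 1.5-fold (0.58 on the log2 scale) were counted. In all 4 comparisons 60 members were expressed and the same 10 were not: Ndufa2, Ndufab1, Ndufb9, Ndufb10, Ndufc2, Cox4i2, Cox7b2, Cox8b, Cox8c and Atp5k. For scale, 835 genes had 2 bright probes, and the SD of a difference per probe was 0.28 to 0.46 log2 units. A single member's difference below about that size lies within the disagreement between probes. This SD compares probes on the same arrays and holds no variation between arrays or animals, so a larger difference may still be noise. Of 9 hepatocyte markers named on the array, Alb and Ahsg read near the top of the scale on all 5 arrays and cannot show a change, and Tat and Tdo2 were dim. The other 5 differed in both directions with NDGA in ob/ob: Cps1, which opens the urea cycle, was at 1.72, Ttr at 0.72, Apoa1 at 0.35, Hnf4a at 0.28 and Apob at -0.64. Apoa1 was above 65000 before normalization on the ob/ob array with NDGA, where values pile up, so its 0.35 is uncertain. With NDGA in WT Cps1 was at -0.73 and Ttr at -0.52, and in ob/ob against WT Cps1 was at -0.81. Because whole liver was used, fewer cells of a type and less RNA per cell cannot be told apart.

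On 40 of 60 expressed members the ob/ob array with NDGA had the highest normalized value of the 5, and on 27 the ob/ob chow array had the lowest. Over all 8319 expressed genes those shares were 30.6% and 14.5%, as a description with no test. The WT chow array was lowest for 15 members (25%), against 16.35% of all genes, and WT high-fat with NDGA for 7 (11.67%), against 21.34%. WT high-fat was lowest for 6 (10%), against 12.43%, and ob/ob with NDGA for 5 (8.33%), against 35.38%. Of the 60 members, 31 stayed within 1.5-fold in all 4 comparisons, against 57.8% of the 7896 genes expressed in all 4.

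**Figure D1:**
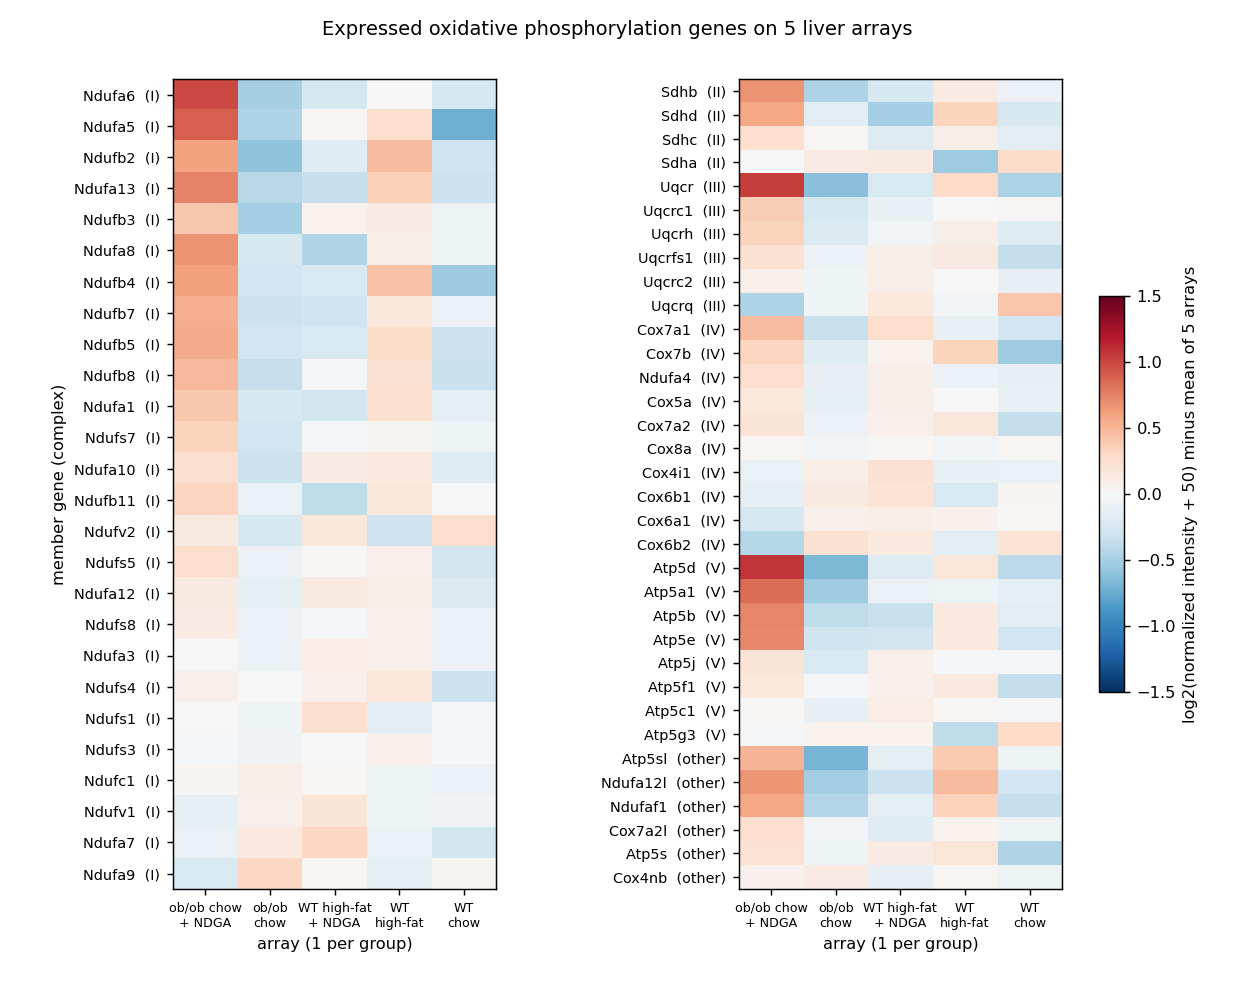
Heat map of the 60 expressed members on the 5 arrays, 1 array per group, with complex I at left and complexes II to V and the genes that encode no subunit (other) at right. Colour is log2(normalized intensity + 50) minus the member's mean over the arrays; within each complex members run from the highest to the lowest difference for NDGA in ob/ob liver. The ob/ob column with NDGA is the reddest, with Uqcr, Atp5d and Ndufa6 at its upper end, while Ndufa9, Cox6b2 and Uqcrq are blue there.

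NDGA on chow against chow alone in ob/ob liver gave the largest member differences of the 4 comparisons. The median over 60 expressed members was 0.38, against -0.09 over all expressed genes. Above 0 were 48 of the members (80%), against 43.85% of all genes. At least 1.5-fold higher were 24 members (40.0%), against 17.1% of all genes, and 13 of them were at least 2-fold higher, against 6.8% of all genes. One member, Cox6b2, was at least 1.5-fold lower, against 11.2% of all genes. Without normalization the member median was 1.35 and that of all genes 0.68, and 54 of 60 members were at least 1.5-fold higher, against 56.8% of all genes.

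High-fat diet against chow in WT liver gave smaller differences. The member median was 0.19 against -0.01 over all genes, with 47 of 60 members (78.3%) above 0, against 49.28% of all genes. There were 10 members at least 1.5-fold higher (16.7%), against 10.6% of all genes, and 2 lower, Sdha and Atp5g3, against 6.13% of all genes. The highest was the complex I subunit Ndufa5 at 1.00, the only member to reach 2-fold; averaged with its second probe, which lies near background, it was at 0.48.

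For NDGA on high-fat diet, set against the diet without it, WT liver had a member median of -0.08, near the -0.03 of all genes. Sdha was the 1 member at least 1.5-fold higher, against 8.23% of all genes, and 5 members were lower, against 9.78% of all genes: Ndufa13, Ndufb2, Ndufb4, Ndufa12l and Sdhd. Both member shares (1.67% and 8.33%) lay under those of all genes. With each array centred on its median, the counts were 1 higher, against 3.8% of all genes, and 16 lower, against 17.7% of all genes, with a member median of -0.33 and an all-gene median of -0.18.

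In ob/ob against WT liver on chow the members differed least. Their median was -0.03 against 0.04 over all genes. Of 8319 expressed genes in all, 7674 were within 1.5-fold, against 59 of 60 members. None was 1.5-fold higher, against 3.73% of all genes, and Atp5sl, an assembly factor, was the 1 lower (-0.62), against 4.03% of all genes. Genetic obesity and NDGA share the ob/ob chow array, high-fat diet and NDGA in WT share the high-fat array, and high-fat diet and genetic obesity share the WT chow array, so the differences of a member are not independent between those pairs.

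**Figure D2:**
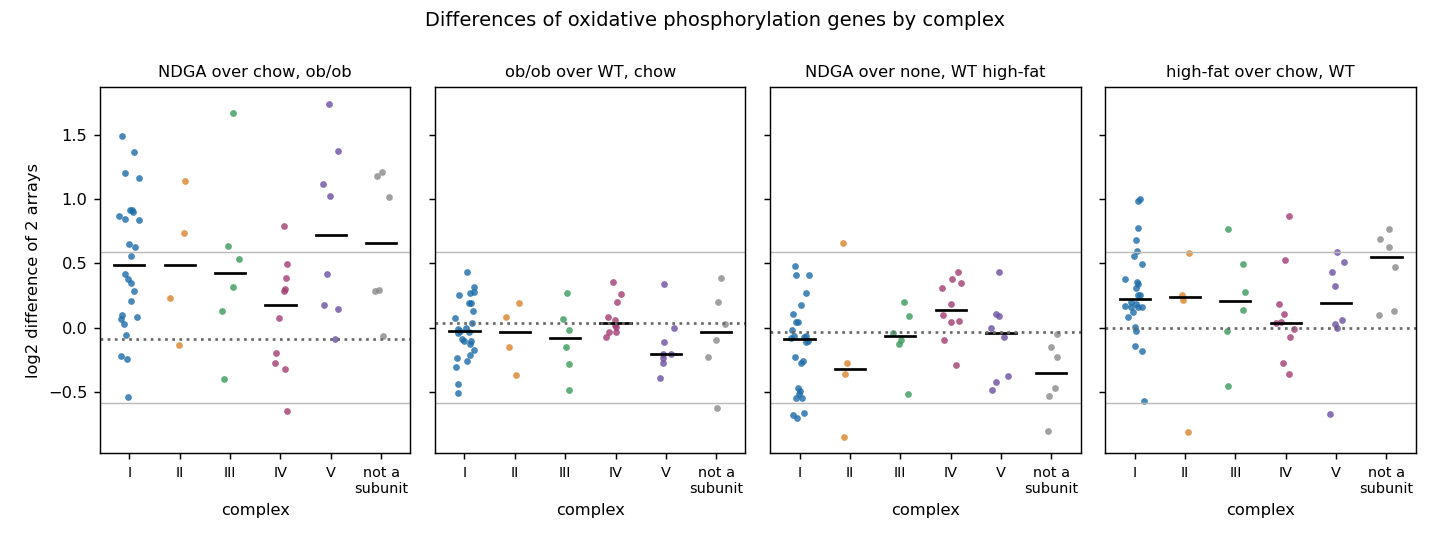
Log2 difference of each expressed member in the 4 comparisons, by complex (points, spread sideways for legibility); "not a subunit" holds the 6 genes matched by letters. Black bars are medians, the dotted line is the median of all expressed genes and the grey lines mark 1.5-fold. With NDGA in ob/ob liver the complex V median is 0.72 and the complex IV median 0.18, while in ob/ob against WT the medians lie between -0.20 and 0.04.

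Complex I holds a core that carries the electrons and a larger set of accessory subunits that stabilise it. Of its 26 expressed subunits, 12 (46.2%) were at least 1.5-fold higher with NDGA in ob/ob liver, against 17.1% of all genes, and 0 lower, against 11.2% (median 0.49). The accessory subunits held 11 of these 12. Their median was 0.74 over 20 expressed, against 0.14 over the 6 core subunits. No test of that gap is possible with 1 array per group.

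Ndufa6, an accessory subunit with the LYR motif that binds the acyl carrier protein, led complex I in ob/ob liver. Its probe read 1128 with NDGA and 369.6 on chow alone in ob/ob liver, and 444 on high-fat diet with NDGA, 547 on high-fat diet and 451 on chow in WT liver. The ob/ob array with NDGA stood above the other 4, and the difference for NDGA in ob/ob was 1.49. Ndufa5, an accessory subunit of the matrix arm, read 3361 with NDGA and 1277 on chow alone in ob/ob liver, and 1823 on high-fat diet with NDGA, 2148 on high-fat diet and 1048 on chow in WT liver. It was lowest on the WT chow array, and its difference was 1.36 with NDGA in ob/ob and 1.00 on high-fat diet. Ndufa13, also known as GRIM-19, read 2630.3 with NDGA and 1146 on chow alone in ob/ob liver, and 1205 on high-fat diet with NDGA, 1991 on high-fat diet and 1224 on chow in WT liver. It was 1.16 with NDGA in ob/ob, 0.68 on high-fat diet and -0.70 with NDGA in WT. Its dimmer second probe was at -0.18, -0.24 and 0.02 in these comparisons, and the mean of both probes, at 0.49, 0.22 and -0.34, was within 1.5-fold in each. Ndufa8, on the intermembrane side, was 0.91 with NDGA in ob/ob and -0.54 with NDGA in WT.

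The Ndufb genes, whose products sit in the proton-pumping membrane arm, had the same sign throughout in 3 comparisons on their brightest probes. All 7 expressed were above 0 with NDGA in ob/ob (0.42 to 1.20, median 0.87). On high-fat diet all 7 were above 0 (0.16 to 0.98, median 0.55). With NDGA in WT all 7 were below 0 (-0.68 to -0.08, median -0.49). Of all genes, 43.85%, 49.28% and 47.05% were above 0 in these comparisons. The dimmer second probe of Ndufb8 had the opposite sign in all 3, at -0.23, -0.01 and 0.21. Ndufb2 read 1145 with NDGA and 469.9 on chow alone in ob/ob liver, and 645 on high-fat diet with NDGA, 1049.8 on high-fat diet and 591 on chow in WT liver. The ob/ob array with NDGA and the WT high-fat array were close to each other and above the rest. Ndufb4 showed a like order, at 3757 with NDGA and 1996 on chow alone in ob/ob liver, and 2069 on high-fat diet with NDGA, 3342 on high-fat diet and 1665 on chow in WT liver. Its differences were 0.90 with NDGA in ob/ob, -0.68 with NDGA in WT and 0.98 on high-fat diet. The other 2 Ndufb genes, Ndufb9 and Ndufb10, were dim and outside these counts.

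The core subunits differed less. Ndufv1, which binds the flavin that oxidises NADH, read 16804 with NDGA and 19573 on chow alone in ob/ob liver, and 21253 on high-fat diet with NDGA, 17621 on high-fat diet and 17929 on chow in WT liver. Its 4 differences lay between -0.22 and 0.27. Ndufs1, the large iron-sulphur subunit, read 219 with NDGA and 206 on chow alone in ob/ob liver, and 266 on high-fat diet with NDGA, 188 on high-fat diet and 213 on chow in WT liver, and was 0.07 with NDGA in ob/ob and 0.41 with NDGA in WT. Ndufs7, which holds the last iron-sulphur cluster before ubiquinone, was the 1 core subunit at least 1.5-fold higher with NDGA in ob/ob (0.63). Ndufv2, an iron-sulphur subunit beside Ndufv1, was dim, at 146 with NDGA and 101 on chow alone in ob/ob liver, and 150.3 on high-fat diet with NDGA, 93.9 on high-fat diet and 164 on chow in WT liver. The WT high-fat and ob/ob chow arrays were its lowest, with negative differences on high-fat diet (-0.57) and in ob/ob (-0.50). Ndufa9, at the joint of both arms, was the brightest complex I gene and had its lowest difference with NDGA in ob/ob, -0.54. It read 26026 with NDGA and 37765 on chow alone in ob/ob liver, and 31214 on high-fat diet with NDGA, 27673 on high-fat diet and 31397 on chow in WT liver. Ndufa7, an accessory subunit of the matrix arm, had the highest member difference in ob/ob against WT, 0.43, and read 19573 with NDGA and 23220.3 on chow alone in ob/ob liver, and 26026 on high-fat diet with NDGA, 19573 on high-fat diet and 17199 on chow in WT liver. Its NDGA difference was -0.25 in ob/ob and 0.41 in WT.

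Complex II, succinate dehydrogenase, also works in the citrate cycle, and its 4 subunits differed in different directions. Sdha, the flavoprotein that oxidises succinate, read 187 with NDGA and 209.7 on chow alone in ob/ob liver, and 211 on high-fat diet with NDGA, 115 on high-fat diet and 239 on chow in WT liver. The WT high-fat array was the lowest, with differences of -0.81 on high-fat diet, 0.66 with NDGA in WT and -0.13 with NDGA in ob/ob. Sdhd, a membrane anchor, had the opposite signs. It read 294 with NDGA and 156 on chow alone in ob/ob liver, and 112 on high-fat diet with NDGA, 240.5 on high-fat diet and 144 on chow in WT liver, giving 0.58 on high-fat diet, -0.85 with NDGA in WT and 0.74 with NDGA in ob/ob. Sdhb, the iron-sulphur subunit, read 410.3 with NDGA and 159 on chow alone in ob/ob liver, and 193 on high-fat diet with NDGA, 263 on high-fat diet and 219.8 on chow in WT liver, a difference of 1.14 with NDGA in ob/ob. Sdhc, the other anchor and the brightest of the 4, was at 0.23 there.

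Complex III passes electrons from ubiquinol to cytochrome c. Uqcr (now Uqcr11), a small accessory subunit, read 2533 with NDGA and 763 on chow alone in ob/ob liver, and 1028 on high-fat diet with NDGA, 1489 on high-fat diet and 853 on chow in WT liver. Its difference of 1.67 with NDGA in ob/ob was the second highest of all members, and it was also higher on high-fat diet (0.77). Uqcrq, another small subunit, read 293 with NDGA and 403 on chow alone in ob/ob liver, and 479.6 on high-fat diet with NDGA, 412 on high-fat diet and 583 on chow in WT liver. It was lowest on the ob/ob array with NDGA (-0.40) and highest on WT chow. The core protein Uqcrc1 read 6126 with NDGA and 3931 on chow alone in ob/ob liver, and 4408 on high-fat diet with NDGA, 4723 on high-fat diet and 4802 on chow in WT liver. It was at 0.63 with NDGA in ob/ob and the hinge protein Uqcrh at 0.53. Uqcrfs1, the Rieske iron-sulphur protein, read 329 with NDGA and 254 on chow alone in ob/ob liver, and 295 on high-fat diet with NDGA, 304 on high-fat diet and 202 on chow in WT liver. It was between -0.04 and 0.49 in the 4 comparisons, and the core protein Uqcrc2 between 0.07 and 0.14. Cyc1, the cytochrome c1 of this complex, is outside the symbol rule; its probe was at -0.67 on high-fat diet, 0.78 with NDGA in WT and -0.61 with NDGA in ob/ob.

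Many genes of the respiratory chain are known targets of the factor NRF1, whose binding site is a GC-rich palindrome. A promoter (250 bases before to 50 after the start, RefSeq, GRCm38.p6) was matched for 59 of 70 members. The letters GCGCANGCG, searched on both strands, occurred in promoters of 14 of the 59 (23.7%), against 9.63% of 17491 protein-coding genes. The motif CCGGAAG of the factor GABPA occurred for 14 members (23.7%), against 12.9%, and AAGATGGCG of YY1 for 6 (10.2%), against 2.14%. The CCAAT box (26 members, 44.1%, against 42.3%) and TATAAA (6 members, 10.2%, against 14.8%) were near the share in all coding genes, and TCAAGGTCA of the receptor ERR-alpha was found for 2 members (3.39%, against 0.377%). A match is a description of letters and shows no binding.

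The 4 promoters below belong to the members with the NRF1 letters that differed most with NDGA in ob/ob liver: Uqcr (chr10:80406772-80407071), Ndufa6 (chr15:82354242-82354541), Ndufa5 (chr6:24527477-24527776) and Ndufa8 (chr2:36049289-36049588), all on the minus strand and printed along the gene's own strand. Capitals mark the NRF1 letters on either strand, which begin at base -5 from the start in Uqcr, at 25 in Ndufa6, at -190 in Ndufa5 and at -29 and -9 in Ndufa8. Ndufa5 has another promoter, from a different start (chr6:24527641-24527940), that also holds the letters 1 time and is not printed, so the position -190 belongs to the printed start only.
Uqcr: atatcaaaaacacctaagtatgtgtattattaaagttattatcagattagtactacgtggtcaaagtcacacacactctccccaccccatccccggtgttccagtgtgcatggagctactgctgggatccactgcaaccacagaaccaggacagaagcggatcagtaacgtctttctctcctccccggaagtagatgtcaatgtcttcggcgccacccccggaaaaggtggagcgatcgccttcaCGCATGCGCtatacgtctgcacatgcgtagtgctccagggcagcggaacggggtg
Ndufa6: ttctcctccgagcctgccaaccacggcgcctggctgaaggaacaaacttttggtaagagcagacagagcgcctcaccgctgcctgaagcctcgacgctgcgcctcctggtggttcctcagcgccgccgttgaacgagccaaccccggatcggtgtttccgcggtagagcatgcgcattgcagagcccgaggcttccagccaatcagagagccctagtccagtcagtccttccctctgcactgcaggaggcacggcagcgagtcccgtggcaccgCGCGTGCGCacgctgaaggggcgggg
Ndufa5: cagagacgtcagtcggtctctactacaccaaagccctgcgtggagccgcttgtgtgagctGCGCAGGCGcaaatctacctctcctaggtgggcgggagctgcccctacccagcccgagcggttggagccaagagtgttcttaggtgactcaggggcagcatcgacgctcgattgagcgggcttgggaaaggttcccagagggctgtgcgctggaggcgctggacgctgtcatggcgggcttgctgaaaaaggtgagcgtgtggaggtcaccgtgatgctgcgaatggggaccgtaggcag
Ndufa8: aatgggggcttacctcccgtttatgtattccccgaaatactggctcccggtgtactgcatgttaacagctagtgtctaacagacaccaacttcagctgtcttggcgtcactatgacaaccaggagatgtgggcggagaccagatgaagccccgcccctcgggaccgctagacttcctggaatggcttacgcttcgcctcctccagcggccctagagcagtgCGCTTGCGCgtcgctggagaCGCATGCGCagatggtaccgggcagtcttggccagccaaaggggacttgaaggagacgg

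Expressed members with the NRF1 letters (12) had a median difference of 0.69 with NDGA in ob/ob, against 0.41 for the 41 with a promoter but without them. On high-fat diet the medians were 0.20 and 0.26, with NDGA in WT -0.16 and -0.08, and in ob/ob against WT -0.13 and -0.02. With NDGA in ob/ob the split by the GABPA letters gave 0.53 for 13 with and 0.40 for 40 without, and that by the YY1 letters had the opposite order, 0.25 for 6 with and 0.49 for 47 without. The Nrf1 gene itself read 2154 with NDGA and 3175 on chow alone in ob/ob liver, and 10642 on high-fat diet with NDGA, 7345 on high-fat diet and 14484 on chow in WT liver on its single probe. It was highest on the WT chow array and lowest on both ob/ob arrays, with -2.17 in ob/ob against WT and -0.55 with NDGA in ob/ob.

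Complex IV, cytochrome c oxidase, was the complex with the lowest median with NDGA in ob/ob, 0.18 over 10 expressed genes. Cox4i1, the common isoform of subunit 4, read 40707 with NDGA and 46743 on chow alone in ob/ob liver, and 51349 on high-fat diet with NDGA, 40381 on high-fat diet and 40707 on chow in WT liver, and its 4 differences lay between -0.20 and 0.35. Cox7b, a small subunit needed for assembly, had the highest complex IV difference on high-fat diet at 0.87. It read 9884 with NDGA and 7008 on chow alone in ob/ob liver, and 8218 on high-fat diet with NDGA, 10043 on high-fat diet and 5468 on chow in WT liver, and WT chow was the lowest array. Cox5a, and Ndufa4, which is named for complex I and now placed in complex IV, were at 0.30 and 0.38 with NDGA in ob/ob. Cox8a, the liver isoform of subunit 8, was above 65000 before normalization on the ob/ob array with NDGA and on WT chow, where values pile up. No fold is given for it, though it is counted in the complex IV median. Cox6a1, the liver isoform of subunit 6A, was nearly as bright, at 49592 with NDGA and 61963 on chow alone in ob/ob liver, and 63459 on high-fat diet with NDGA, 61435 on high-fat diet and 59609 on chow in WT liver. Cox6b1, the common isoform of subunit 6B, read 21638 with NDGA and 26189.7 on chow alone in ob/ob liver, and 27527 on high-fat diet with NDGA, 20437 on high-fat diet and 24674 on chow in WT liver.

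Several complex IV subunits have isoforms made in other tissues. Of the 6 on the array, Cox4i2 (lung), Cox8b (heart and muscle), Cox7b2 and Cox8c (testis) read below 32.0 on all 5 arrays and were not expressed. Cox7a1, the heart and muscle isoform of subunit 7A, read 218 with NDGA and 105 on chow alone in ob/ob liver, and 185 on high-fat diet with NDGA, 131 on high-fat diet and 109 on chow in WT liver. It was highest on both arrays with NDGA, with differences of 0.79 in ob/ob and 0.38 in WT; its liver counterpart Cox7a2 was at 0.29 and -0.09, reading 2124 with NDGA and 1733 on chow alone in ob/ob liver, and 1959.5 on high-fat diet with NDGA, 2092 on high-fat diet and 1439.6 on chow in WT liver. Cox6b2, described as a testis isoform, read 2576 with NDGA and 4063 on chow alone in ob/ob liver, and 3862 on high-fat diet with NDGA, 3112 on high-fat diet and 4009 on chow in WT liver. Its difference of -0.65 with NDGA in ob/ob turned to 0.33 without normalization, where all genes had a median of 0.68.

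Cox6a2, the muscle isoform of subunit 6A that the rule leaves out, read 194 with NDGA and 25.0 on chow alone in ob/ob liver, and 1384 on high-fat diet with NDGA, 20.8 on high-fat diet and 26.6 on chow in WT liver. Skeletal muscle markers were also higher there. Counted without the filter on dim genes, 11 of the 20 named were 2-fold higher or more with NDGA in WT. Of all 16637 genes, 0.493% met that criterion. Among the 14 expressed with NDGA in WT, 2 were below 0, with Tnnt3 at -0.76. With NDGA in ob/ob, 4 of the 20 were 2-fold higher or more without that filter, and 0 were 2-fold lower. The 4 were Ckm (2.10), Ckmt2 (1.63), Mylpf (1.59) and Mb (1.29). Among the 11 expressed in ob/ob, 2 (18.2%) were at least 1.5-fold higher, against 17.1% of all genes, and 5 were below 0. The sum over all 20 named was 6922 and 6641 in ob/ob with NDGA and on chow. In WT it was 16316, 5494 and 6582 on high-fat diet with NDGA, on high-fat diet and on chow. Ckm, the muscle creatine kinase, read 223 and 13.6 in ob/ob with NDGA and on chow, and 1589, 13.6 and 13.4 on the same WT arrays. The part of muscle RNA in the difference of Cox7a1 was not tested. Cox7a1 is also made in brown fat. Of 6 markers of that tissue, Ucp1 and Elovl3 read at most 8.79 on any array. Cidea, which fatty liver also expresses, held most of their summed signal on all arrays but WT chow. With NDGA in WT, 3 of the 4 expressed were at least 1.5-fold higher (75%), against 8.23% of all genes. These were Fabp3 (2.67), Cidea (1.13) and Cpt1b (0.70), while Ppargc1a was at -0.07. With NDGA in ob/ob, Cidea was at 1.94, Fabp3, dim there, at 1.30, Ppargc1a at 0.49 and Cpt1b at 0.16. The part of brown fat RNA in the difference of Cox7a1 was not tested either. Cox8b, also made in muscle, read 19.0 on WT high-fat diet with NDGA and 6.48 on high-fat diet.

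Complex V had the highest median with NDGA in ob/ob, 0.72 over 8 expressed genes. The 5 subunits of its catalytic head and rotating shaft had a median of 1.12 and the 3 expressed genes of the c ring and peripheral stalk 0.17. Atp5d, the delta subunit of the shaft, read 821 with NDGA and 211 on chow alone in ob/ob liver, and 314 on high-fat diet with NDGA, 422 on high-fat diet and 265 on chow in WT liver. Its difference of 1.74 was the highest of all members, a 3.34-fold ratio on the offset scale, and the ob/ob chow array was the lowest. Atp5a1, the alpha subunit, read 1607 with NDGA and 591 on chow alone in ob/ob liver, and 822 on high-fat diet with NDGA, 826 on high-fat diet and 789 on chow in WT liver. The 3 WT arrays were nearly equal and the ob/ob arrays lay on either side of them, with a difference of 1.37. Atp5b, the beta subunit that makes ATP, read 12318 with NDGA and 5652 on chow alone in ob/ob liver, and 5827 on high-fat diet with NDGA, 8188 on high-fat diet and 6534 on chow in WT liver, a difference of 1.12. Atp5e, the epsilon subunit, was at 1.02. Atp5c1, the gamma subunit that turns inside the head, did not follow them; the brightest complex V gene, it read 42061 with NDGA and 38036 on chow alone in ob/ob liver, and 44756 on high-fat diet with NDGA, 41984 on high-fat diet and 41102 on chow in WT liver, a difference of 0.14.

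Atp5g3, 1 of the genes for the proton-carrying c ring, resembled Sdha. It read 427 with NDGA and 456 on chow alone in ob/ob liver, and 455 on high-fat diet with NDGA, 324 on high-fat diet and 547 on chow in WT liver, lowest on WT high-fat diet, with -0.67 for the diet, 0.43 with NDGA in WT and -0.09 with NDGA in ob/ob. The stalk subunits Atp5f1 and Atp5j were at 0.17 and 0.41 with NDGA in ob/ob. In ob/ob against WT, 7 of 8 complex V genes were below 0, down to -0.39 for Atp5a1, with a median of -0.20. Of 8319 expressed genes in all, 3667 were below 0 there.

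The 3 complex I assembly factors were among the members that differed most. Ndufa12l read 1012 with NDGA and 420.2 on chow alone in ob/ob liver, and 487 on high-fat diet with NDGA, 887 on high-fat diet and 502 on chow in WT liver. It was at 1.18 with NDGA in ob/ob, -0.80 with NDGA in WT and 0.76 on high-fat diet; Ndufaf1 was at 1.02, -0.47 and 0.69, and Atp5sl at 1.21, -0.53 and 0.47 in the same comparisons. Atp5sl read 495 with NDGA and 185 on chow alone in ob/ob liver, and 298 on high-fat diet with NDGA, 453 on high-fat diet and 312 on chow in WT liver, lowest on ob/ob chow. Atp5s, coupling factor B, read 698 with NDGA and 564 on chow alone in ob/ob liver, and 653 on high-fat diet with NDGA, 677 on high-fat diet and 421 on chow in WT liver, lowest on WT chow, and was at 0.63 on high-fat diet and 0.38 in ob/ob against WT. Of 22 expressed assembly factors outside the rule, 9 (40.9%) were at least 1.5-fold higher with NDGA in ob/ob, against 17.1% of all genes, and 0 lower, led by Cox15 (1.40), which makes the heme a of complex IV, and Coa6 (1.08), a copper handling factor. Sdhaf1, which assembles complex II, was at 1.04 there and 1.17 on high-fat diet.

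The size of the member differences went with probe brightness. With NDGA in ob/ob, the 23 members with a mean normalized intensity under 1000 had a median of 0.74, the 22 between 1000 and 10000 had 0.63, and the 15 above 10000 had 0.08, with 12, 12 and 0 at least 1.5-fold higher. All expressed genes in the same ranges had medians of -0.08, -0.13 and -0.06, so their medians showed no such order, while the share of all genes at least 1.5-fold higher was 18.5% between 1000 and 10000 and 7.87% above 10000. On high-fat diet the member medians were 0.20, 0.35 and 0.11. The complexes also differed in brightness. In complex IV, Cox4i1, Cox5a, Cox6a1, Cox6b1 and Cox8a read above 10000 on both ob/ob arrays, and in complex V only Atp5c1 did. The part of brightness in the order of the complex medians was not tested.

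**Figure D3:**
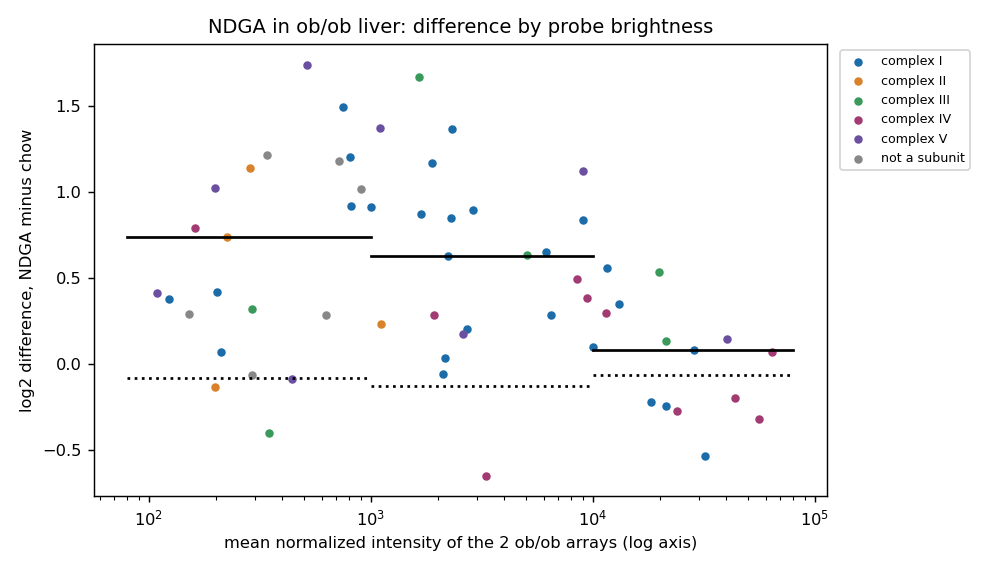
Log2 difference for NDGA against chow in ob/ob liver (vertical) by mean normalized intensity of both arrays (horizontal, log axis), 1 point per expressed member, coloured by complex. Solid lines are member medians (0.74, 0.63 and 0.08) and dotted lines the medians of all expressed genes in 3 ranges of intensity, divided at 1000 and 10000. Members above 10000 lie between -0.54 and 0.56, while those below 10000 reach 1.74.

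Second probes did not always repeat the first. Of the 8 members with 2 bright probes, 3 had the same sign on both with NDGA in ob/ob and 1 on high-fat diet, against 62.6% and 61.0% of 835 genes. With NDGA in ob/ob, Ndufa13 was at 1.16 on the brighter probe and -0.18 on the other, Ndufb8 at 0.83 and -0.23, and Ndufa10 at 0.56 and -0.46. Ndufs4, an accessory subunit of complex I, was at 0.08 on the brighter probe and 1.31 on the other. The dimmer probes of Ndufa10 and Ndufa13 read between 102 and 219, and which probe follows the transcript better was not tested. Of the 24 members at least 1.5-fold higher, 3 have a second probe (Ndufa5, Ndufa13 and Ndufb8), and none of those second probes was above 0, that of Ndufa5 lying near background. With each gene's probes averaged, these 3 genes were at 0.64, 0.49 and 0.30.

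Other mitochondrial genes gave a setting for these values. With NDGA in ob/ob the medians were 1.03 for mitochondrial beta-oxidation (15 expressed), 0.69 for the citrate cycle and pyruvate dehydrogenase (14), 0.57 for mitochondrial ribosomal proteins (53) and 0.26 for genes with Rpl or Rps symbols (25), which include a few ribosomal protein kinases, with the oxidative phosphorylation members at 0.38. At least 1.5-fold higher were 11 (73.3%), 8 (57.1%), 25 (47.2%) and 8 (32.0%) genes of those lists, against 24 of 60 members (40.0%) and 17.1% of all genes. Idh2, a mitochondrial isocitrate dehydrogenase, had the highest citrate cycle difference at 1.97, and Slc25a3, the carrier that brings phosphate to the ATP synthase, was at 1.69. On high-fat diet the medians were 0.38, 0.32, 0.30 and 0.11, and with NDGA in WT -0.03, -0.10, -0.32 and -0.25.

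**Figure D4:**
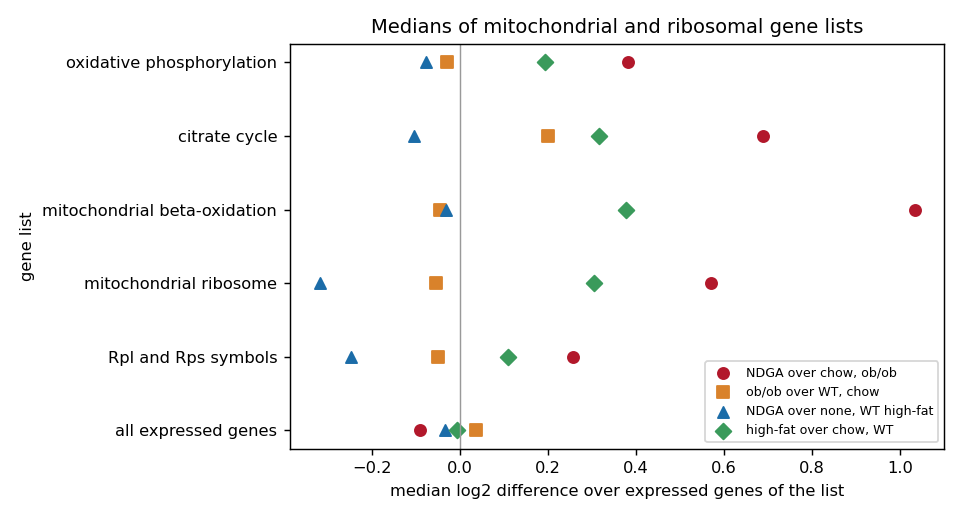
Median log2 difference over the expressed genes of 5 gene lists and of all expressed genes (rows) in the 4 comparisons (symbols). For NDGA in ob/ob liver, oxidative phosphorylation (0.38) lies between genes with Rpl or Rps symbols, a few kinases included (0.26), and mitochondrial ribosomal proteins (0.57), with beta-oxidation at 1.03 and all genes at -0.09.

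Regulators of mitochondrial genes had a median of -0.42 with NDGA in ob/ob; of the 9 expressed, 0 reached 1.5-fold higher, against 17.1% of all genes, and 1 reached 1.5-fold lower, against 11.2%. Ppargc1a, the coactivator of mitochondrial biogenesis, read 202 with NDGA and 129 on chow alone in ob/ob liver, and 147 on high-fat diet with NDGA, 157 on high-fat diet and 149 on chow in WT liver, a difference of 0.49 with NDGA in ob/ob. Esrra, which encodes ERR-alpha, was the 1 lower, at -0.64. Olfactory receptors had medians of -0.41 with NDGA in ob/ob (156 expressed), 0.47 with NDGA in WT (168) and -0.31 on high-fat diet (161). These were opposite in sign to the member medians in the same comparisons.

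Markers of other liver cells also differed between the arrays. The 8 macrophage markers, all expressed, summed to 8557 and 8429 in ob/ob with NDGA and on chow, and to 3799, 7964 and 4292 in WT on high-fat diet with NDGA, on high-fat diet and on chow. The 8 stellate cell markers summed to 6145 and 5731 in ob/ob with NDGA and on chow, and to 4661, 6519 and 2716 in WT on those diets. Both sums were higher on high-fat diet than on chow in WT and lower with NDGA than without in WT, as were the medians of the Ndufb genes. Both of these comparisons use the WT high-fat array, and the others did not repeat the likeness. In ob/ob against WT on chow both sums were higher, while the Ndufb median was -0.10. With NDGA in ob/ob the macrophage sum was 8557 against 8429, while the Ndufb median was 0.87. The sums hide markers that moved apart. With NDGA in ob/ob, 6 of the 8 macrophage markers were above 0, with Adgre1 at 1.09 and Mpeg1 at 1.03, while 2 were below 0. C1qb, the brightest, was at -0.35. With NDGA in WT, 6 of the 8 stellate markers were below 0, while Acta2 (0.89) and Des (0.48) were above. The part of these markers in the member differences was not tested.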

How the data were processed

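Liver RNA of 5 groups was measured on 1-colour (Cy5) Mouse OneArray slides, per the labels. The deposited table holds linear intensities per probe, a unit read from the values themselves. The sources used here name no scanner, background correction or scaling by the authors; some values lie below 0, and the array medians differ. Columns were mapped by sample; 0 were left unmapped. Probes were named from the platform annotation: 21020 of 29922 carried 1 symbol. Symbols of other genes, not of members, were updated through RefSeq (GRCm38.p6); 8 more genes, such as Ndufv3 and Uqcr10, match the rule only after updating and are in an alternative. Quantile normalization over 5 arrays, an offset of 50, log2 and differences of 2 arrays followed (Python 3.11.15, numpy 2.4.6, pandas 2.3.3, statsmodels 0.14.6), tested on simulated data. No p-value is possible, and the number of arrays limits the precision. The members, lists and thresholds were chosen with earlier results of these data known. Values on all 5 arrays are given mainly for the 3 highest and 3 lowest members of each comparison, the catalytic or core subunits and the tissue isoforms. Proteins were not used here. Each count was repeated with no normalization, median centring, loess (span 0.3), no filter, a 75th percentile filter, the mean of probes, an offset of 16, no saturated probes (65000), and subunits only. Updated symbols and quantile normalization of 2 arrays were added after the data were seen.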

Additional observations from a re-analysis of the deposited data

Results flagged for a closer look

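The NDGA comparison was made in 2 kinds of liver, and 5 members were at least 1.5-fold apart in opposite directions: higher in ob/ob and lower in WT. Of the 8068 genes expressed in both comparisons, 5.76% met the same criterion, against 5 of 60 members. Ndufa13 was at 1.16 in ob/ob and -0.70 in WT, Ndufb2 at 1.20 and -0.66, Ndufb4 at 0.90 and -0.68, Ndufa12l at 1.18 and -0.80, and Sdhd at 0.74 and -0.85. Averaged with its second probe, which was at -0.18 and 0.02, Ndufa13 was at 0.49 and -0.34 and no longer met it. With 1 array per group, this difference between genotypes was not tested. The ob/ob mice were on chow and the WT mice on high-fat diet, so genotype and diet cannot be told apart in it. The WT comparison rests on the WT high-fat array, where all 5 genes were higher than on WT chow. No sample could be set against others of its group.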

How the results depend on the processing

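Each count and median of the members was recomputed under 11 alternatives. Without normalization, NDGA in ob/ob gave a median of 1.35 with 54 members at least 1.5-fold higher and 0 lower, and ob/ob against WT a median of -0.26 with 4 lower (all-gene medians 0.68 and -0.15; 56.8% of all genes higher in the first and 8.09% lower in the second). Cox6b2 with NDGA in ob/ob turned to 0.33 there. With median centring, NDGA in WT gave -0.33 with 16 lower (17.7% of all genes), ob/ob against WT -0.24 with 4 lower (7.6%), and NDGA in ob/ob 2 lower, as did loess. Small counts also changed: with the 75th percentile filter, 1 was lower on high-fat diet, 0 higher with NDGA in WT and 0 lower in ob/ob against WT; with the offset of 16, 2 were higher with NDGA in WT and 2 lower in ob/ob against WT; in ob/ob against WT, subunits only and quantile normalization of 2 arrays each gave 0 lower. The cause was not tested. The other 114 counts and medians stayed within 1.5 times the count or within the binomial interval around the median. Values of single genes also depended on the processing: 58 were marked as moved, 1 as reversed and 1053 as the same. With median centring, NDGA in WT gave -0.03 for Cox4i1, 0.01 for Cox6b1 and -0.16 for Ndufv1. The main values were 0.35, 0.43 and 0.27. No paired analysis was possible because each group has 1 array.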
